A study of Mus musculus with 9 samples.

Results

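The genes described here encode the proteins of the calpain, PARP and cGMP-dependent kinase route of photoreceptor death: the calpain subunits Capn1, Capn2, Capn5 and Capns1, the calpain inhibitor Cast, the poly(ADP-ribose) polymerase Parp1, the kinases Prkg1 and Prkg2, and the mitochondrial flavoprotein Aifm1. They were taken by symbol from the deposited expression table, and all 9 were found among its 22337 genes. Retinal RNA was sequenced at P28 from 3 groups of 3 libraries: non-treated C57 BL/6J mice (WT), rd10 mice given normal saline (NS) and rd10 mice given extracellular vesicles of human umbilical cord mesenchymal stem cells (MSC-EVs). The rd10 mouse is homozygous for a missense change in Pde6b, the beta subunit of the rod phosphodiesterase, and both rd10 groups were injected with 1 μl into the vitreous of both eyes, first at P14 and then at P21. The WT mice received no injection and came from another supplier, so the effects of the mutation, of the injection and of the mouse source cannot be told apart in either comparison with WT. The study counts animals or retinas as n and does not say which of these a library is, and p-values measure the spread between these libraries only.

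In a rod, phosphodiesterase 6 breaks down cGMP, and its loss lets cGMP rise, which opens the cGMP-gated channel to calcium and activates the cGMP-dependent kinases. Calcium activates the calpains, proteases made of a catalytic subunit and the small subunit CAPNS1 and held in check by calpastatin, the product of Cast. PARP1 attaches poly(ADP-ribose) to proteins at damaged DNA at the cost of NAD, and the polymer can release AIF, the product of Aifm1, from mitochondria towards the nucleus. These steps are controlled largely at the protein level, and the data here are transcript levels.

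Total counts per library were between 19491717 and 62532343, with MSC-EVs replicate 3 the deepest, so that 1 count was worth between 0.016 and 0.0513 CPM, the count scaled to library size. The 9 genes were covered by 94 to 10404 counts per library, the lowest in Prkg2 and the highest in Capns1. The libraries of the retina held the rod, cone, bipolar and Müller glia markers in every group, with no marker gene at 0 in all libraries of a group. The Y-linked genes Ddx3y, Eif2s3y, Kdm5d and Uty together had 4379 and 4421 counts in MSC-EVs replicates 1 and 2 and 7 to 23 counts in each of the other 7 libraries, so the MSC-EVs libraries did not match the others, or each other, in Y-linked expression. The table names no genome build. Positions below are those of the genes' identifiers in GENCODE M21 on GRCm38, and the promoter sequences are RefSeq's on GRCm38.p6.

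Per transcript length, on the FPKM scale, Capns1 had the highest level of the 9 genes in WT retina, at 76.9 ± 1.64 FPKM (SD, n = 3). Parp1 followed at 20.8 ± 0.689, Aifm1 at 10.6 ± 0.645, Capn2 at 9.39 ± 0.398, Capn5 at 5.85 ± 0.676 and Prkg1 at 4.39 ± 0.594 FPKM. Capn1 at 3.07 ± 0.446 and Cast at 3.03 ± 0.14 FPKM were not separated by their libraries, and Prkg2 was lowest at 0.887 ± 0.0764 FPKM. In NS retina the order changed in the middle: Parp1 at 18.7 ± 1.29 and Capn2 at 16.8 ± 1.68 FPKM overlapped, as did Aifm1 at 10.1 ± 1.19, Capn5 at 9.32 ± 1.09 and Prkg1 at 9.25 ± 0.562 FPKM. The ends of the order, Capns1 at 157 ± 7.19 and Prkg2 at 1.04 ± 0.17 FPKM, were the same. The FPKM of Cast, Prkg1 and Prkg2 also carries a transcript length that was estimated for each library, since the ratio of count to FPKM ranged, once depth was taken out, over 0.88 to 1.07, 0.98 to 1.14 and 0.81 to 1.02 times its value in WT replicate 1. For the other 6 genes it stayed between 0.96 and 1.03.

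The first question was how the route differed between the degenerating and the WT retina. With saline, 6 of the 9 transcripts were higher than in WT: the calpain subunits Capn1, Capn2, Capn5 and Capns1, the inhibitor Cast and the kinase Prkg1. Parp1 and Aifm1 were lower, and Prkg2 did not pass the test. Calls are Benjamini-Hochberg adjusted p-values under 0.05 in edgeR over all genes tested. With TMM scaling the changes were below 2-fold, with log2 fold changes from 0.50 in Capn5 to 0.97 in Prkg1 among the genes that rose. The 2 largest reached 2-fold on other scales: Capns1 had 1.02 with limma on log2(FPKM + 1), and Prkg1 1.06 with limma on log2(FPKM + 0.1) and 1.01 with upper-quartile factors in edgeR. In bulk retina, fewer cells of a type and less RNA per cell cannot be told apart.

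This comparison called much of the transcriptome. Of the 14644 genes tested, 31.2% were called higher and 30.1% lower, 12.7% were called with a change of at least 2-fold, and for 66.9% no library of either group fell within the range of the other. Beside these, 6 of 9 genes were higher, 2 of 9 lower and 0 of 9 changed by at least 2-fold, and 7 of 9 did not overlap. The count without overlap is near the background. The median log2 fold change was 0.66 for the 9 genes and 0.01 for all genes tested.

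**Figure D1:**
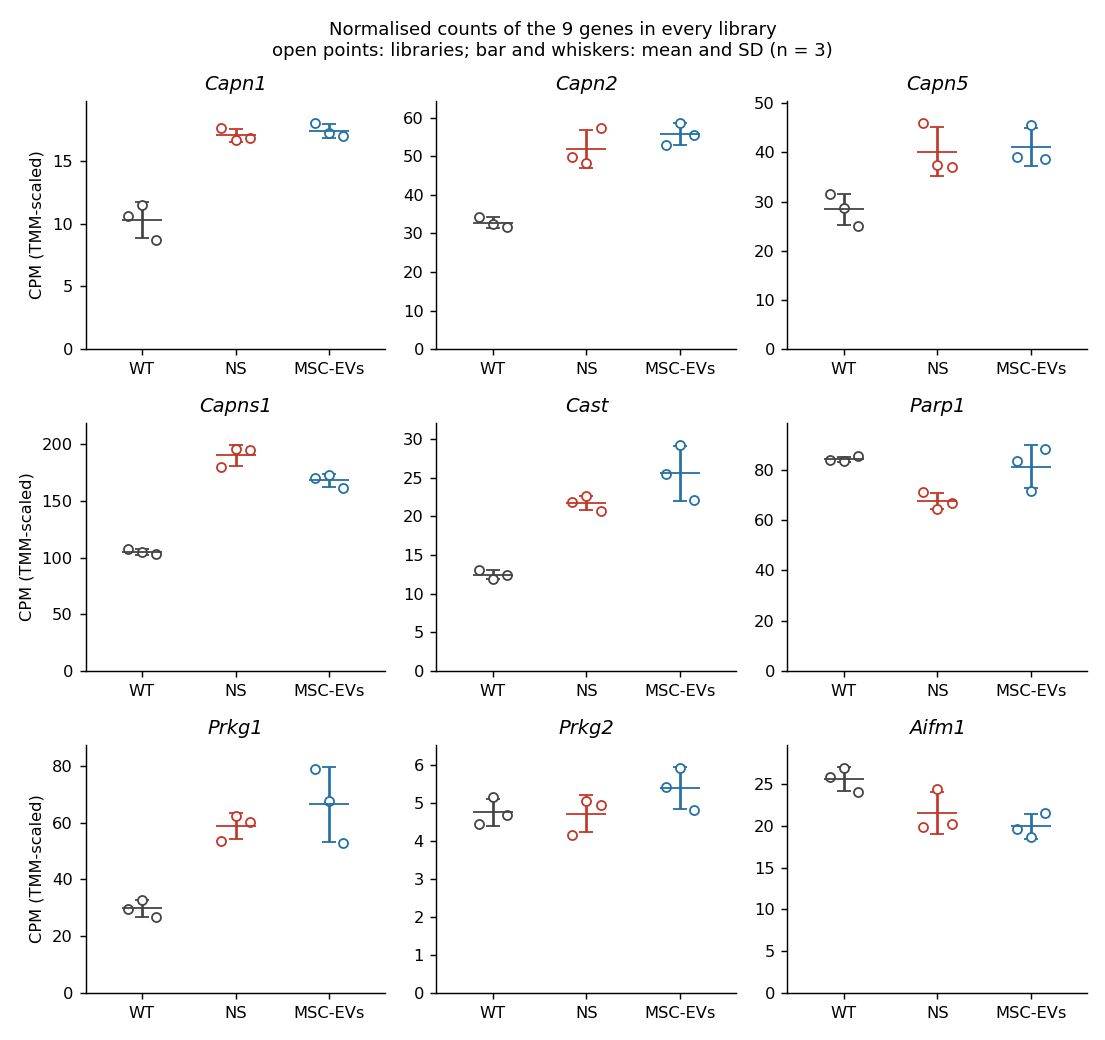
CPM values, scaled with TMM factors, of each of the 9 genes (vertical axes, each from 0) in the 3 libraries each of the WT, NS and MSC-EVs groups (open points), with the mean and SD. The calpain subunits, Cast and Prkg1 sit higher in both rd10 groups than in WT, Parp1 in NS libraries sits at 64.6 to 71.1 CPM below all other libraries, and Prkg2 overlaps between the groups.

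CAPN1 and CAPN2 are the catalytic subunits of the classical calpains, which need calcium at low and high concentration, respectively. Capn2 (chromosome 1, 182467260 to 182517608, minus strand) lay at 34.3, 32.3 and 31.6 CPM in WT, at 49.7, 48.3 and 57.4 CPM in NS and at 52.9, 58.5 and 55.6 CPM in MSC-EVs libraries. Every rd10 library lay above every WT library, and the rd10 groups overlapped. The log2 fold change of NS against WT was 0.66 (SE 0.08, edgeR adjusted p = 1.43e-05). Capn1 (chromosome 19, 5988545 to 6015897, minus strand) had 10.6, 11.5 and 8.71 CPM in WT, 17.6, 16.7 and 16.8 CPM in NS and 18, 17.2 and 17 CPM in MSC-EVs libraries. It rose by a similar amount, with a log2 fold change of 0.72 (SE 0.11, edgeR adjusted p = 0.000142), and its WT and rd10 libraries did not overlap. If strand was not kept, reads of a gene and of its antisense partner cannot be told apart: 1717 exonic bases of Capn2 lie opposite Gm37885 and 394 of Capn1 opposite Gm10814, neither of which is in the table used here, and the sources do not state that strand was kept.

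CAPNS1 is the regulatory subunit that both classical calpains share. Capns1 (chromosome 7, 30186936 to 30198811, minus strand) had the smallest SE of the 9 genes, at 108, 105 and 103 CPM in WT, 180, 196 and 195 CPM in NS and 170, 173 and 162 CPM in MSC-EVs libraries. The 3 groups did not overlap: WT was lowest, NS highest and MSC-EVs between them. Its rise in NS had a log2 fold change of 0.85 (SE 0.05, edgeR adjusted p = 9.25e-08). Over 202 exonic bases Capns1 lies opposite Gm26810, which is also not in the table used here, so the limit of strand applies to it too. CAPN5 is a non-classical calpain that does not need the small subunit and is mutated in an inherited inflammatory eye disease. Capn5 (chromosome 7, 98121559 to 98178274, minus strand) rose least, from 31.5, 28.7 and 25.1 CPM in WT to 45.9, 37.4 and 37.1 CPM in NS, with 39, 45.6 and 38.7 CPM in MSC-EVs libraries. The log2 fold change was 0.50 (SE 0.11, edgeR adjusted p = 0.00189), with no overlap between WT and NS.

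Calpastatin binds and inhibits the classical calpains, and its transcript rose with them. Cast (chromosome 13, 74692368 to 74808810, minus strand) lay at 13.1, 11.9 and 12.4 CPM in WT, at 21.9, 22.6 and 20.7 CPM in NS and at 25.5, 29.2 and 22.1 CPM in MSC-EVs libraries. Neither rd10 group overlapped with WT, and the log2 fold change of NS was 0.80 (SE 0.09, edgeR adjusted p = 7.82e-06). Cast overlaps Erap1, an aminopeptidase gene of the antigen presentation pathway on the opposite strand, over 834 exonic bases. Erap1 rose as well, from 16.4 to 18.9 CPM in WT to 32.2 to 40.9 CPM in NS (log2 fold change 1.07, SE 0.11, edgeR adjusted p = 3.65e-06), and how many of its reads were counted for Cast was not tested.

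The promoter windows of Capn2, a calpain that rose, of Prkg1, which rose most, and of Parp1, which fell, are shown because these genes mark the range of responses in the route. RefSeq windows were found for 7 of the 9 genes, all but Capn5 and Prkg2. Prkg1 has 2 annotated starts, and the window shown is that of the upstream start, where the GENCODE gene begins. Each window is the 250 bases before the annotated start, 5′ to 3′ on the strand of the gene, at chr1:182517611-182517860 (minus strand) for Capn2, chr19:31765034-31765283 (minus strand) for Prkg1 and chr1:180568641-180568890 (plus strand) for Parp1. Capitals mark matches to the GC box GGGCGG, a motif of the SP1 family, and to the AP-1 motif TGACTCA, both searched on both strands.
Capn2: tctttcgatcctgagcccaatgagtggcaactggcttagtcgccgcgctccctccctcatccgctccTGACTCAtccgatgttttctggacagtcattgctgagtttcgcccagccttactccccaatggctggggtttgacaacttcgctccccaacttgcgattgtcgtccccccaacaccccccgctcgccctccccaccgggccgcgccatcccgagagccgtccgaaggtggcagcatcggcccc
Prkg1: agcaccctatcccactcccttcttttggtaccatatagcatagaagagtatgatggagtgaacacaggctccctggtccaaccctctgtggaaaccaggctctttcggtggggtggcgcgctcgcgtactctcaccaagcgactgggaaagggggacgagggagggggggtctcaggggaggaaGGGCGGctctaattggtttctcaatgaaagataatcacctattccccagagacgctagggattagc
Parp1: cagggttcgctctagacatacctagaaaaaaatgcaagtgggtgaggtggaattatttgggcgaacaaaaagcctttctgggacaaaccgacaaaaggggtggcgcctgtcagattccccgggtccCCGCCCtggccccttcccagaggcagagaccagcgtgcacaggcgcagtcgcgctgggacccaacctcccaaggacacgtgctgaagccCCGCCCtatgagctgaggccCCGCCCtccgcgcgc
The Capn2 window held 1 AP-1 motif and no GC box, the Prkg1 window shown 1 GC box and no AP-1 motif, like that of its other start, and the Parp1 window 3 GC boxes and no AP-1 motif. No AP-1 motif was found in the windows of Capn1, Capns1 and Cast, which also rose, or of Aifm1, which fell. Of 32851 promoter windows of the same length, 32.7% held a GC box and 4.46% an AP-1 motif. A match is a run of letters, not evidence of a bound factor.

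PARP1 is the main nuclear poly(ADP-ribose) polymerase. Parp1 (chromosome 1, 180568924 to 180601254, plus strand) had 83.9, 83.6 and 85.4 CPM in WT, 71.1, 64.6 and 67 CPM in NS and 83.7, 71.7 and 88.3 CPM in MSC-EVs libraries. The NS libraries were the lowest, and they overlapped with neither group, while the MSC-EVs libraries spread across the WT range. Its log2 fold change in NS was -0.32 (SE 0.06, edgeR adjusted p = 0.000497). On the FPKM scale the fall was smaller and no longer called, at -0.15 (limma on log2(FPKM + 1), adjusted p = 0.0886). FPKM values raised the log2 fold changes of all genes between NS and WT by a median of 0.16.

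PRKG1 and PRKG2 are cGMP-dependent protein kinases, type I and type II. Prkg1 (chromosome 19, 30564489 to 31765033, minus strand) showed the largest rise of the 9 genes in NS, from 29.7, 32.9 and 26.8 CPM in WT to 53.6, 62.3 and 60.4 CPM. The log2 fold change was 0.97 (SE 0.09, edgeR adjusted p = 1.33e-06), and the groups did not overlap. In MSC-EVs libraries Prkg1 had 79, 67.5 and 52.8 CPM, the widest spread of any group, with replicates 1 and 2 above all NS libraries and replicate 3 below them. Prkg2 (chromosome 5, 98929773 to 99037351, minus strand) was near 5 CPM throughout: 4.44, 5.15 and 4.7 CPM in WT, 4.16, 5.05 and 4.94 CPM in NS and 5.43, 5.93 and 4.82 CPM in MSC-EVs libraries. The groups overlapped, and the log2 fold change in NS was -0.02 with a 95% interval from -0.37 to 0.32 (edgeR adjusted p = 0.906).

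Aifm1 (chromosome X, 48474944 to 48513563, minus strand) encodes AIF, a flavoprotein of the mitochondrial intermembrane space. It had 25.9, 26.9 and 24.1 CPM in WT, 19.9, 24.4 and 20.2 CPM in NS and 19.6, 18.7 and 21.6 CPM in MSC-EVs libraries. NS replicate 2, at 24.4 CPM, lay within the WT range, and the other NS libraries lay below it. The log2 fold change in NS was -0.26 (SE 0.10, edgeR adjusted p = 0.0318), and this call was lost without WT replicate 1 (adjusted p = 0.0837), WT replicate 2 (0.124), NS replicate 1 (0.0933) or NS replicate 3 (0.104), and with FPKM values (limma adjusted p = 0.513).

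**Figure D2:**
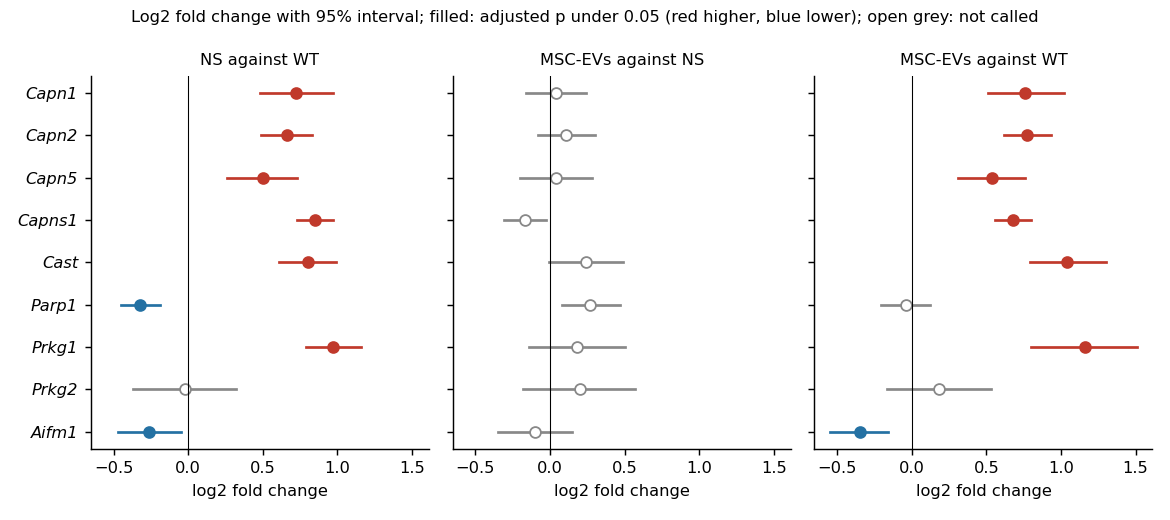
Log2 fold changes of the 9 genes (points) with 95% intervals (lines) in the 3 comparisons. Filled red and blue points passed an adjusted p of 0.05 in edgeR as higher and lower, and open grey points did not; in NS against WT 8 genes are filled, in MSC-EVs against NS none is.

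The cell makeup of the retina moved in the same comparison. The 10 rod markers all fell: their summed level was 75700 to 81200 CPM in WT and 15300 to 22000 CPM in NS. The 12 microglia and macrophage markers all rose, from a sum of 43.6 to 48.1 CPM to 340 to 432 CPM, with Aif1 at 3.80 (SE 0.30, edgeR adjusted p = 5.92e-07). Of 8 Müller glia markers 7 rose, from a sum of 4360 to 4650 CPM to 5630 to 6270 CPM. Gfap, on the astrocyte list and a marker of reactive glia, rose by 2.67 (SE 0.26, edgeR adjusted p = 0.000532). Endothelial markers summed to 336 to 352 CPM in WT and 514 to 586 CPM in NS, and 5 of 7 rose. The part of cell makeup in the changes of the 9 genes was not tested.

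Levels in bulk RNA are relative to each other, and the levels were also scaled to 24 marker genes of bipolar, amacrine, horizontal and ganglion cells. This scaling lowered the log2 fold changes of NS against WT by a median of 0.29 and turned the share of calls that were higher from 50.8% to 23.3%, with 14.6% of genes called higher and 47.9% lower. With TMM scaling these markers were themselves higher in NS. Their median log2 fold changes were 0.2 (bipolar, 4 of 8 called higher), 0.27 (amacrine and horizontal, 8 of 9) and 0.3 (ganglion, 5 of 7), with 0 called lower. Against the inner retina, 5 of the 9 genes were still called higher and 2 lower. Prkg1 stood at 0.69, Capns1 at 0.56, Cast at 0.51, Capn1 at 0.44 and Capn2 at 0.37 (edgeR adjusted p from 3.44e-05 to 0.00768). Capn5 lost its call at 0.20 (edgeR adjusted p = 0.123). The falls were larger on this scale, with Parp1 at -0.62 (edgeR adjusted p = 1.35e-05) and Aifm1 at -0.54 (edgeR adjusted p = 0.00138), while Prkg2 at -0.31 was not called (edgeR adjusted p = 0.161).

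**Figure D3:**
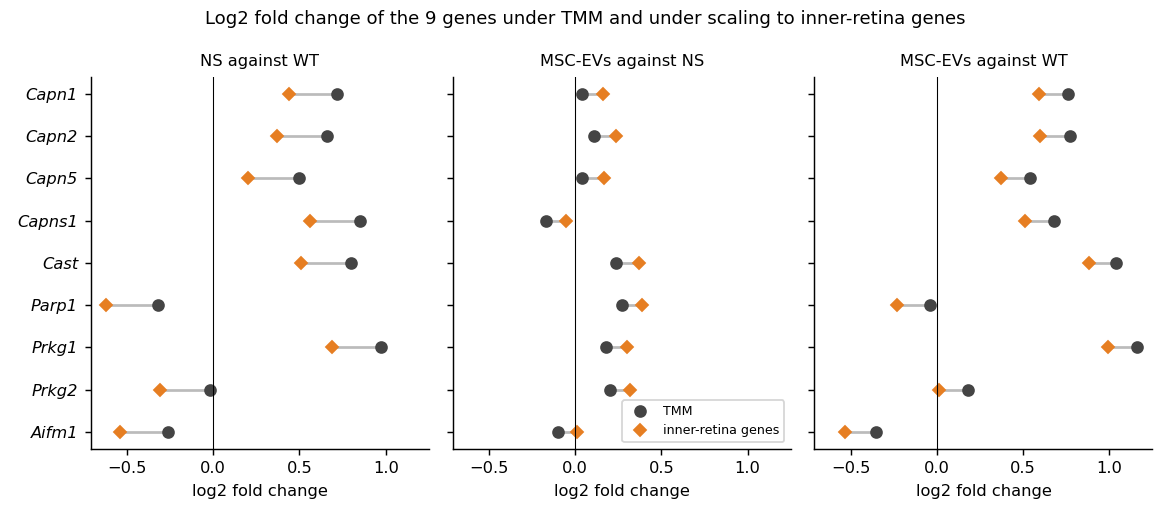
Log2 fold changes of the 9 genes with TMM scaling (grey circles) and with scaling to 24 inner-retina marker genes (orange diamonds) in the 3 comparisons. The scaling moves NS against WT down by a median of 0.29 over all genes, and Prkg1, Capns1, Cast, Capn1, Capn2 and Capn5 stay to the right of 0, Capn5 without a call.

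The other genes of the route were followed in 8 lists with 97 genes outside the 9, of which 91 were tested between NS and WT. They split, with 36 higher, 28 lower and 27 not called and a median log2 fold change of 0.13. All genes tested split as well, with 31.2% called higher and 30.1% lower. The counts of each list below stand beside these same shares. On the inner-retina scale 15 of the 91 were called higher and 35 lower, beside the 14.6% and 47.9% of all genes. There 7 of the 36 rises turned sign with no call (Nampt, Gucy1b1, Pde1b, Atp2b1, Kcnma1, Cdk5r1 and Vdac1). Among the remaining calpain genes 5 of 11 were tested, and all 5 were called. Capn3 and Capn6 rose and Capn7, Capn10 and Capn15 fell. Capn3, a calpain best known from muscle, had a log2 fold change of 2.29 (SE 0.55, edgeR adjusted p = 0.00469) on low counts, with 16, 11 and 0 counts in WT and 36 to 62 counts in NS. Capn6, which lacks protease activity, had 1.09 (SE 0.31, edgeR adjusted p = 0.00937), and Capn10, the largest fall of the list, had -0.57 (SE 0.08, edgeR adjusted p = 9.27e-05). The other 6, Capn8, Capn9, Capn11, Capn12, Capn13 and Capns2, had at most 32 counts in any library.

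Among 22 other genes of the PARP family and of poly(ADP-ribose) turnover, 7 rose, 5 fell and 10 were not called, with a median of 0.07, and on the inner-retina scale 6 were higher and 10 lower. The rises were large in Parp3, a DNA-repair PARP, and in Parp9 and Parp14, which are induced by interferon. Parp3 went from 4.21 to 5.2 CPM in WT to 23.6 to 26.4 CPM in NS (log2 fold change 2.44, SE 0.11, edgeR adjusted p = 5.65e-09). Parp9 had 2.24 (SE 0.20, edgeR adjusted p = 1.34e-05) and Parp14 2.23 (SE 0.27, edgeR adjusted p = 0.00038). The falls included Oard1, which removes ADP-ribose from proteins, at -0.88 (SE 0.08, edgeR adjusted p = 1.2e-06), Xrcc1, a repair scaffold recruited by poly(ADP-ribose), at -0.56, and Parp2, the polymerase closest to Parp1 in role, at -0.34 (SE 0.08, edgeR adjusted p = 0.00454). Among the 3 PARPs that respond to DNA damage, Parp1 and Parp2 fell and Parp3 rose.

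NAD is the substrate of the PARPs, and of 11 genes of its supply and use 4 rose and 4 fell, with 2 higher and 5 lower on the inner-retina scale. Sarm1, an NAD-cleaving enzyme of axon degeneration, fell from 130, 140 and 150 CPM in WT to 60.1, 61.5 and 61.6 CPM in NS (log2 fold change -1.20, SE 0.06, edgeR adjusted p = 1.51e-08). Cd38, another NAD-cleaving enzyme and an immune cell surface protein, rose from 2.33 to 2.69 CPM to 5.78 to 6.91 CPM (log2 fold change 1.34, SE 0.16, edgeR adjusted p = 2.19e-05). Naprt, which makes NAD from nicotinic acid, rose by 1.60, Nmnat2, a neuronal NAD synthase, by 0.31 (0.01 and not called on the inner-retina scale), and Nmnat1, the nuclear NAD synthase linked to retinal dystrophy, had -0.48. Bst1, a relative of Cd38, had -0.73 with overlapping libraries.

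On the cGMP side, genes of the rod cascade fell under both scalings, and the rises of genes outside it depended in part on the scaling. Of 10 synthesis genes 4 fell and 3 rose: the photoreceptor cyclase Gucy2f had -1.90, and its calcium-sensing activators Guca1b and Guca1a had -2.55 and -1.58. Against this, the natriuretic peptide receptor Npr2 rose by 0.51 and the soluble cyclase subunits Gucy1a1 and Gucy1b1 by 0.43 and 0.25. On the inner-retina scale the synthesis list had 0 genes higher and 4 lower by edgeR, with Npr2 at 0.21, Gucy1a1 at 0.13 and Gucy1b1 at -0.04 (edgeR adjusted p = 0.0941, 0.185 and 0.694). Of 13 phosphodiesterase genes 3 fell, all of the rod enzyme. Pde6b, the gene mutated in rd10, fell from 2410 to 2600 CPM to 450 to 616 CPM (log2 fold change -2.23, SE 0.10, edgeR adjusted p = 3.02e-08), Pde6g had -2.06 and Pde6a -1.67. A further 7 rose, with Pde2a, which is stimulated by cGMP, at 0.79, Pde10a at 0.63 and Pde9a, specific for cGMP, at 0.62. These were the 3 phosphodiesterase genes still called higher on the inner-retina scale, at 0.51, 0.33 and 0.32, against 4 lower.

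The channels and pumps that set calcium split in the same way, with 7 of 13 higher and 5 lower with TMM scaling, and 1 higher and 5 lower on the inner-retina scale. The rod exchanger Slc24a1 had a log2 fold change of -1.96 and the rod cGMP-gated channel subunits Cngb1 and Cnga1 had -1.71 and -1.60. The sodium-calcium exchanger Slc8a1 rose by 0.63 (SE 0.05, edgeR adjusted p = 1.07e-06), the calcium channel Cacna1d by 0.51 and the cone exchanger Slc24a2 by 0.46. Slc8a1 was the rise still called on the inner-retina scale, at 0.33, while Cacna1d at 0.21 and Slc24a2 at 0.16 were not (edgeR adjusted p = 0.0615 and 0.116). Among 8 substrates of the kinases and calpains, 3 rose and 1 fell. Vasp, an actin regulator phosphorylated by the cGMP-dependent kinases, rose by 0.83 (SE 0.11, edgeR adjusted p = 4.13e-05), the calpain-cleaved Cdk5 activator Cdk5r1 by 0.25 and the potassium channel gene Kcnma1 by 0.24. Vasp was still called on the inner-retina scale, at 0.53. Creb1, a transcription factor downstream of the kinases, fell by 0.35 on the log2 scale. Among 9 genes of AIF partners and of the mitochondrial route, 3 rose and 3 fell. The cyclophilin genes Ppif and Ppia had 0.40 and 0.31. The histone gene H2ax, the nuclease gene Endog and the import gene Chchd4 had -0.60, -0.56 and -0.39. The mitochondrial pore gene Vdac1 had 0.15. On the inner-retina scale this list had 0 higher and 3 lower by edgeR, with Ppif at 0.11 and Ppia at 0.02 (edgeR adjusted p = 0.447 and 0.867).

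**Figure D4:**
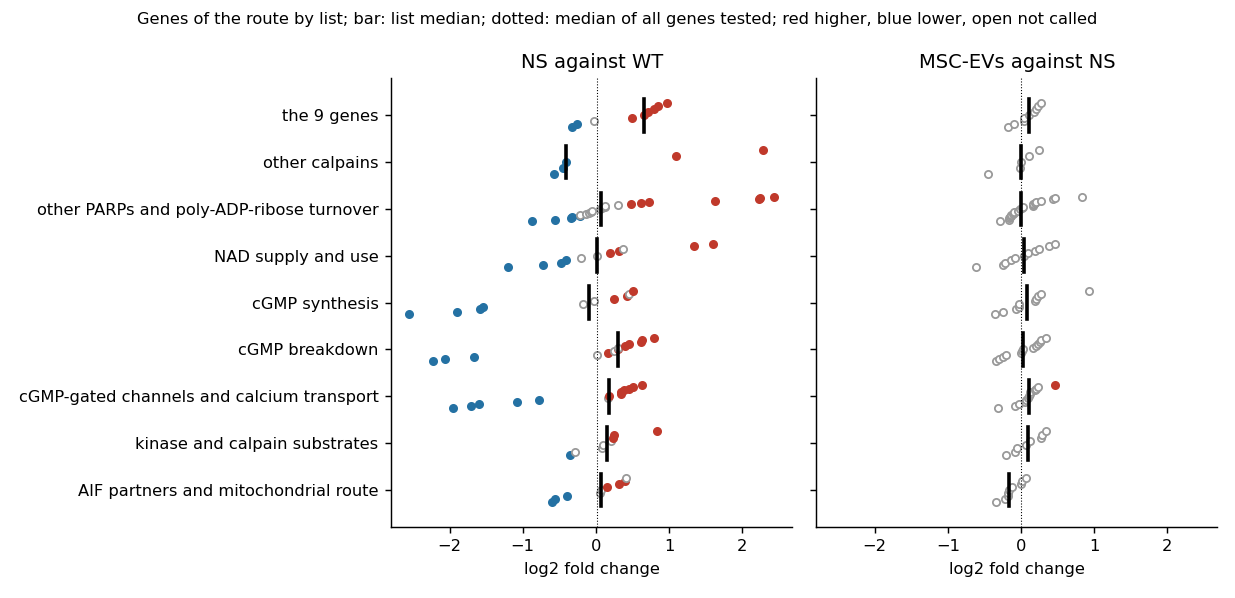
Log2 fold changes of the 9 genes and of the genes of 8 further lists of the route (points) in NS against WT and in MSC-EVs against NS, with the median of each list (bar) and of all genes tested (dotted line). Red and blue points passed the test as higher and lower; the lists of cGMP synthesis, breakdown and channels reach from -2.55 to 0.79 in NS against WT, and Atp2b1 is the filled point in MSC-EVs against NS.

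The second question was whether MSC-EVs changed the route in the rd10 retina. None of the 9 genes passed the test between MSC-EVs and NS. By unadjusted p, edgeR put 2 of the 9 under 0.05, Parp1 and Capns1, beside 2980 of the 14765 genes tested, so that 2 of 9 is near the background. DESeq2 and limma called 0 of the 9 as well. The comparison called few genes: 0.914% of 14765 genes were higher, 0.251% lower and 0.061% changed by at least 2-fold, and 26.2% had libraries that did not overlap. No gene in the table was called once NS replicate 3, or once MSC-EVs replicate 1, was left out (edgeR, with 1991 and 2052 genes at an unadjusted p under 0.05). The median log2 fold change was 0.11 for the 9 genes and 0 for all genes.

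Parp1 and Capns1 were the 2 genes whose MSC-EVs and NS libraries did not overlap. Parp1 had a log2 fold change of 0.27 (95% interval 0.08 to 0.47, edgeR adjusted p = 0.134), and Capns1 had -0.17 (95% interval -0.31 to -0.03, edgeR adjusted p = 0.165). Their log2 fold changes in NS against WT were -0.32 and 0.85, in a comparison that shares the NS libraries. Without MSC-EVs replicate 2, whose Parp1 level of 71.7 CPM was the lowest of its group, Parp1 was called at 0.36 (edgeR adjusted p = 0.032). Leaving out that library also raised the calls over all genes from 172 to 676. On the inner-retina scale, which raised all log2 fold changes of this comparison by a median of 0.12 and the share of calls that were higher from 78.5% to 98.9%, Parp1 had 0.39 (edgeR adjusted p = 0.0576) and Capns1 -0.05. The marker genes behind this scale were themselves lower with TMM scaling. Their median log2 fold changes were -0.19 (bipolar), -0.2 (amacrine and horizontal) and -0.17 (ganglion), and 2 of 8 bipolar markers were called lower.

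Cast and Prkg1 were above NS on average, with log2 fold changes of 0.24 (95% interval -0.01 to 0.49, edgeR adjusted p = 0.264) and 0.18 (95% interval -0.14 to 0.50, edgeR adjusted p = 0.514). In both genes MSC-EVs replicates 1 and 2, the libraries with Y-linked counts, were above replicate 3: 25.5 and 29.2 against 22.1 CPM for Cast and 79 and 67.5 against 52.8 CPM for Prkg1. With the Y-linked level of each library as a covariate, Cast had 0.04 and Prkg1 -0.15. Among the MSC-EVs libraries only replicate 3 had a Y-linked level as low as that of NS. These values therefore rest largely on that library and cannot test the group. The remaining intervals were -0.16 to 0.24 for Capn1, -0.08 to 0.30 for Capn2, -0.20 to 0.28 for Capn5, -0.18 to 0.57 for Prkg2 and -0.35 to 0.15 for Aifm1.

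Of the other 91 genes of the route tested, Atp2b1 was called. It encodes a plasma membrane pump that exports calcium, and it had 334, 320 and 322 CPM in WT, 379, 362 and 369 CPM in NS and 547, 476 and 506 CPM in MSC-EVs libraries. All MSC-EVs libraries lay above all NS libraries, and the log2 fold change was 0.47 (SE 0.07, edgeR adjusted p = 0.0252). The call was lost when MSC-EVs replicate 1, NS replicate 3 or NS replicate 2 was left out. It was also lost with the Y-linked level as a covariate, a fit that rests largely on MSC-EVs replicate 3. On the inner-retina scale Atp2b1 had 0.59 (edgeR adjusted p = 0.023). The rod markers stayed at 15800 to 22100 CPM with MSC-EVs and the microglia and macrophage markers at 290 to 521 CPM. The Müller glia markers summed to 4700 to 5050 CPM, below all NS libraries. Of these 8 markers 0 were called and 3 did not overlap, beside 26.2% of all genes. The astrocyte markers went the other way, at 446 to 560 CPM against 265 to 431 CPM in NS, with 0 of 4 called. Aif1 differed by -0.16 on the log2 scale (edgeR adjusted p = 0.834) and Gfap by 0.60 (edgeR adjusted p = 0.257), and 2 bipolar markers were called lower.

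Against WT, the MSC-EVs-treated retina showed the rises of the calpain subunits, Cast and Prkg1 as well, with WT libraries that also serve the comparison with NS. Of 14623 genes tested, 28.3% were called higher, 27.2% lower and 12.2% with a change of at least 2-fold, and 65.1% did not overlap. Of the 9 genes, 6 were higher, 1 was lower, 2 changed by at least 2-fold and 7 did not overlap, with a median log2 fold change of 0.68 against 0 for all genes. Prkg1 had 1.16 (SE 0.15, edgeR adjusted p = 0.00055) and Cast 1.04 (SE 0.11, edgeR adjusted p = 5.22e-05), the 2 genes past 2-fold. With the Y-linked level as a covariate they had 0.84 and 0.85, values that rest largely on MSC-EVs replicate 3.

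The calpain subunits had log2 fold changes against WT of 0.77 (SE 0.07) for Capn2, 0.76 (SE 0.12) for Capn1, 0.68 (SE 0.05) for Capns1 and 0.54 (SE 0.10) for Capn5, with edgeR adjusted p-values from 6.51e-06 to 0.0016. Parp1 was close to WT, at -0.04 (95% interval -0.21 to 0.12, edgeR adjusted p = 0.635). Prkg2 had 0.18 (95% interval -0.17 to 0.53, edgeR adjusted p = 0.361). Aifm1 was lower, at -0.35 (SE 0.09, edgeR adjusted p = 0.00667), with no overlap, and this call was lost with FPKM values (limma adjusted p = 0.081). With the Y-linked covariate Aifm1 had -0.25, a value that rests largely on MSC-EVs replicate 3. The inner-retina scaling lowered this comparison by a median of 0.18 and the share of calls that were higher from 51% to 30.6%. With TMM scaling its marker genes had median log2 fold changes of 0.01 (bipolar), 0.32 (amacrine and horizontal) and 0.31 (ganglion). On the inner-retina scale the 6 rises were still called, and Aifm1 at -0.53 and Parp1 at -0.23 were called lower (edgeR adjusted p = 0.000738 and 0.0369). Of all genes, 16.9% were called higher there and 38.2% lower.

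The wider route in MSC-EVs-treated retina had 37 of 92 genes higher and 28 lower than in WT, beside 28.3% and 27.2% of all genes. On the inner-retina scale 24 were higher and 34 lower, beside 16.9% and 38.2% of all genes. Parp14, Parp9 and Parp3 led the rises at 3.06, 2.68 and 2.31, and Cd38 had 1.82 (SE 0.21, edgeR adjusted p = 6.31e-05). Parp14 was at 84.7, 45.2 and 44.4 CPM in MSC-EVs libraries and at 44.8, 25.9 and 27 CPM in NS libraries, and its difference between the rd10 groups, 0.83, was not called (edgeR adjusted p = 0.282). Gucy1a2, a soluble cyclase subunit, had 1.37 against WT (SE 0.31, edgeR adjusted p = 0.00448). Slc8a1 had 0.83 and Atp2b1 0.65, and the rod genes were low here too, with Pde6b at -2.07, Guca1b at -2.31 and Slc24a1 at -1.73. Sarm1 had -1.01 and Oard1 -0.98.

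Within the route, the balance of partner transcripts was compared as ratios of FPKM values in 12 tests, for which 3 against 3 libraries allow no exact permutation p under 0.1 (two-sided). The ratio of Cast to the sum of Capn1 and Capn2, inhibitor to protease, was 0.243 ± 0.00337 in WT, 0.261 ± 0.0314 in NS and 0.305 ± 0.0547 in MSC-EVs libraries (SD, n = 3). WT and NS overlapped. The MSC-EVs libraries lay at 0.283, 0.367 and 0.265, all above WT (exact permutation p = 0.1, adjusted p = 0.24) and overlapping with NS. These ratios also carry the length estimated for Cast in each library. Relative to WT replicate 1, it was 0.94 and 1.06 in WT replicates 2 and 3 and 1.04, 0.88 and 0.96 in MSC-EVs libraries. With counts in place of FPKM values, MSC-EVs replicate 3 fell within the WT range and the WT libraries lay further apart.

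The ratio of the small subunit to the 2 catalytic subunits was 6.18 ± 0.259 in WT, 6.97 ± 0.511 in NS and 5.81 ± 0.222 in MSC-EVs libraries. NS lay above both WT (6.58 to 7.55 against 6.01 to 6.48) and MSC-EVs (5.60 to 6.04), each with an exact permutation p of 0.1 and an adjusted p of 0.24. Capn1 made up 0.246, 0.257 and 0.246 of the Capn1 and Capn2 sum in WT, NS and MSC-EVs libraries, with overlap in every pair. Prkg1 made up 0.831 ± 0.0182 of the 2 kinases in WT, 0.899 ± 0.0107 in NS and 0.898 ± 0.0151 in MSC-EVs libraries, higher in both rd10 groups without overlap (exact permutation p = 0.1, adjusted p = 0.24 for each). None of the 12 ratio tests could pass an adjusted p of 0.05 in this design.

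**Figure D5:**
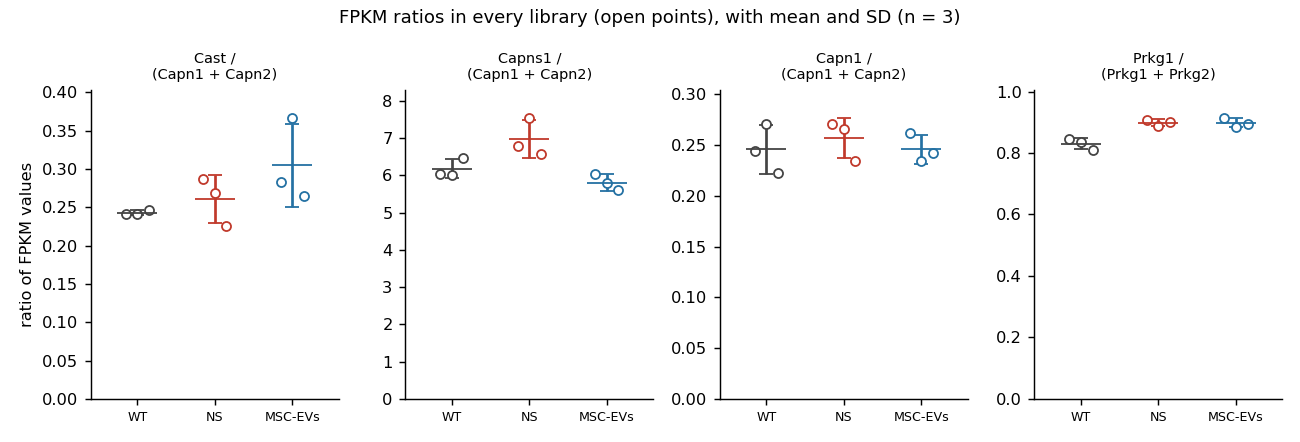
Ratios of FPKM values in each library (open points), with the mean and SD of 3 libraries per group, on axes that start at 0. The ratio of Capns1 to Capn1 and Capn2 is highest in NS, at 6.58 to 7.55, the Prkg1 share is higher in both rd10 groups than in WT, and MSC-EVs replicate 2 is the high point of the Cast ratio at 0.367.

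Across the 9 libraries, the gene of the other lists whose log2 CPM followed each of the 9 most closely was found among 92 genes by Pearson's r, a description over libraries that share the 3 groups. Cast went with Slc8a1 and Prkg1 with Cd38 (both r = 0.99), Capns1 with Parp3 (0.98), Capn2 with Cacna1d (0.97) and Parp1 with Creb1 (0.96). Capn1 went with Parp8 (0.95), Capn5 with Atp2b4 (0.93) and Aifm1 with Oard1 (0.87), and Prkg2 had the weakest nearest gene, Nmnat3 (0.78).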

How the data were processed

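Retinal mRNA was enriched with oligo(dT), and the paper names Genedenovo Biotechnology as the company that sequenced it on an Illumina platform. The authors deposited 1 table with an expected count, estimated by the authors and not scaled to depth, and an FPKM value, scaled by the authors for length and depth, per gene and library. The submitters' processing notes name fastp, Bowtie2, HISAT2, StringTie 1.3.1 and RSEM without their order, and the build and annotation are not given in the sources used here. Between 9.16% and 11.7% of genes per library had decimals, so counts were rounded.

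The 6 libraries of any 2 groups entered a robust quasi-likelihood test (edgeR 4.0.16, R 4.3.3) after filterByExpr and TMM scaling, with Benjamini-Hochberg adjustment over all genes tested and a threshold of 0.05. The SE is the absolute log2 fold change divided by the square root of F. CPM use TMM factors of all 9 libraries, between 0.92 and 1.05. The design assumed counts. Ratios of FPKM values were tested with exact permutation tests (scipy 1.17.1). limma 3.58.1 on log2(FPKM + 1) or log2(FPKM + 0.1), DESeq2 1.42.0, other scalings, filters and thresholds, all libraries in 1 fit, a replicate block, a Y-linked covariate and leaving out each library were alternatives. The tests were tested on simulated data.

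The genes and lists were chosen with earlier results of these data known. All 9 genes are named; from each list, up to 3 called genes per direction with the largest change against WT, and up to 2 between the rd10 groups. Further genes were named where a scaling turned their sign (Nampt, Pde1b) or for their position (Erap1), after their values were seen. Values of 1 marker gene are left out.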

Additional observations from a re-analysis of the deposited data

How the results depend on the processing

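Of the log2 fold changes of the 9 genes recomputed under the alternatives, 419 kept their direction and side of the threshold, 13 lost a call, 2 gained 1 and 16 that were not called changed sign. The ratio tests cannot pass the threshold with 3 libraries a group and say nothing of stability. No called value changed sign. The calls lost were those of Capn5 (inner-retina scaling), Parp1 (FPKM values) and Aifm1 (upper-quartile factors, edgeR adjusted p = 0.0574, FPKM values, the Y-linked covariate and 4 left-out libraries). Fits with the Y-linked covariate rest largely on replicate 3 for the MSC-EVs group and cannot test that group. Asking for a change of at least 2-fold left 0 of 8 calls among the 9 genes and 20 of 64 among the other route genes in NS against WT, and 2 of 7 and 20 of 65 in MSC-EVs against WT. In MSC-EVs against NS the calls among the 9 genes ranged from 0 to 1 when a library was left out, the 1 being Parp1 without MSC-EVs replicate 2. The other route genes called there, 1 with edgeR, were 2 with upper-quartile factors, inner-retina scaling, no filter or limma with either pseudocount, 5 with DESeq2, all 9 libraries in 1 fit or the replicate block, 0 with the Y-linked covariate, an adjusted p under 0.01 or a change of at least 2-fold, and 0 to 6 when a library was left out (0 after leaving out MSC-EVs replicate 1, NS replicate 3 or NS replicate 2, and 6 after leaving out MSC-EVs replicate 2). At an unadjusted p under 0.05, edgeR had 21 of these 91 genes, beside 2980 of all 14765, and 14 or 15 in the 3 fits with none called. Over all genes that comparison called 172, 947 with DESeq2, 1026 with all 9 libraries in 1 fit, 380 on the inner-retina scale, 403 with the replicate block, 676 without MSC-EVs replicate 2, 32 without NS replicate 2, and 0 after leaving out NS replicate 3 or, in turn, MSC-EVs replicate 1, where 1991 and 2052 genes had an unadjusted p under 0.05; the causes were not tested. The paper states that rd10 littermates received either MSC-EVs or NS, and the sources do not say whether the replicate numbers pair the libraries. Same-numbered libraries correlated in their deviations by -0.0586 to 0.0308 between NS and WT. The correlations were 0.0932 to 0.272 between the rd10 groups and 0.0201 to 0.0765 between MSC-EVs and WT. The block changed no call among the 9 genes, and whether litters paired the rd10 libraries was not tested. Genes near 0 counts, such as Capn8 and Capn13, could not be compared at this depth.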
